A study of Mus musculus with 15 samples.

Results

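Genes that build and hold the node of Ranvier were followed in the mouse auditory nerve after loud noise. The 10 genes were 3 ankyrins (Ank1, Ank2, Ank3), 3 spectrins (Sptan1, Sptbn1, Sptbn4) and 4 genes of the junction between axon and glia (Nfasc, Cntn1, Cntnap1, Epb41l3), chosen by symbol. Earlier results of these data were known when the genes were chosen. The platform annotation paired 35 of 45101 probe sets with them, and each probe set was read by itself. Of the 35, 32 lay above the filter on dim signal and were tested among 33775, which left 9 of the 10 genes. The 15 arrays fell into 5 groups of 3: mice taken directly after the exposure, 1 day, 7 days or 14 days later, and mice with no exposure. All were CBA/CaJ mice, aged 5 to 12 weeks, and the exposure was octave-band noise between 8 and 16 kHz, given at 106 dB SPL over 2 h. Each array held the trimmed core of the cochlea (modiolus) with its nerve, from both ears of 1 animal, so other cells of the modiolus contributed RNA. Every 1-day mouse was male and every control female. The other 3 groups each held 2 females and 1 male.

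The node of Ranvier is the gap between neighbouring myelin segments, where sodium channels cluster and the action potential is renewed. Ankyrins are adaptors that tie membrane proteins to a lattice of α and β spectrin. At the node, the ankyrin of Ank3 and the β spectrin of Sptbn4 hold the channels beside neurofascin (Nfasc). At the flanking paranode, contactin (Cntn1) and Caspr (Cntnap1) of the axon bind the glial form of neurofascin, and the linker of Epb41l3 joins this complex to the axonal spectrins of Sptan1 and Sptbn1. The ankyrin of Ank2 occurs along axons and at paranodes. That of Ank1, best known from red blood cells, also occurs in neurons. Auditory nerve fibres are myelinated by Schwann cells in the periphery and by oligodendrocytes centrally.

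Ank2 held the largest called falls at 1 day and Cntn1 the smallest adjusted p between the immediate time and 1 day, so the starts of these genes are shown. The RefSeq windows of assembly GRCm38.p6 run from 250 bases before to 50 bases after the most upstream listed start. Capitals mark matches, on either strand, to the TATA box (TATAAA), the CCAAT box (CCAAT), the GC box (GGGCGG), the cAMP response element (TGACGTCA) or the AP-1 site (TGACTCA).
Ank2, chr3:127499066-127499365, minus strand: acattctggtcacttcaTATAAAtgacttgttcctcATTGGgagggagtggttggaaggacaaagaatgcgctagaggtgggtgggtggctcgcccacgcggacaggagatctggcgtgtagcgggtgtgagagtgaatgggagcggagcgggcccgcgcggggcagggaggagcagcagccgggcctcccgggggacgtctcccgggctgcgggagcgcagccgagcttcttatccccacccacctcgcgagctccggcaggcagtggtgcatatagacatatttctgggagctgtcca
Cntn1, chr15:92050915-92051214, plus strand: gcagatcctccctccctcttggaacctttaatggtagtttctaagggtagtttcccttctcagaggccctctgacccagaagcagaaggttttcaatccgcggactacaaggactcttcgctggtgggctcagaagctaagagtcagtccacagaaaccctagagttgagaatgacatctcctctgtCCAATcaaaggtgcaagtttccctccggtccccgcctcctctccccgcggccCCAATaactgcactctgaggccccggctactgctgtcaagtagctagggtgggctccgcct
The Ank2 window held 1 TATA box and 1 CCAAT box, with 62.7% G and C and 21 CpG pairs. The Cntn1 window held 2 CCAAT boxes, with 55.3% G and C and 9 CpG pairs. Of 32841 windows of this length, 13.6% held the TATA box, 37.4% the CCAAT box, 35.7% the GC box, 1.79% the cAMP response element and 5.2% the AP-1 site. The median window had 52.7% G and C and 7 CpG pairs. The matches describe letters only. The table held windows for 7 of the 10 genes.

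Values below are log2 intensities, and changes are log2 fold changes ± SE from a limma fit over all 15 arrays, with n = 3 in each group. A change was called at a Benjamini-Hochberg adjusted p under 0.05 over all 33775 probe sets. Array medians lay between 5.87 and 5.92. The 7 probe sets of Y-linked genes read 2.24 to 4.33 in the 9 female arrays, which shows the reading given without a transcript, and the filter lay at 4.16. In whole tissue, fewer cells of a type and less RNA per cell cannot be told apart.

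Against control, members were called at 1 day only, and downward. Of 32 probe sets, 3 fell and 0 rose at 1 day, against a background of 1.84% called among all probe sets (0.85% lower and 0.986% higher). They were 2 of Ank2 and 1 of Ank3. The 1-day mean was below the control mean in 25 of 32, against 51.6% of all probe sets, and the median change was -0.16 against -0.01 over all. At an unadjusted p under 0.05 were 14 of 32, against 5305 of 33775 over all. All 1-day arrays lay below all controls in 15 of 32 (background 10.6%), and above them in 0 of 32 (background 9.26%). The 1-day group had the lowest mean of the 5 groups in 18 of 32 (background 26.4%) and the highest in 2 of 32 (background 22.5%). None of these counts separates time after noise from sex, which differed wholly between these groups.

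No member passed against control at the other times. Immediately after noise limma called 0 of 32 (background 0.69%), with 2 at an unadjusted p under 0.05 (5085 of 33775 over all). The median change was 0.01. At 7 days it called 0 of 32 (background 0.0503%), with 5 at an unadjusted p under 0.05 (3835 of 33775 over all) and a median of -0.04. At 14 days it called 0 of 32 (background 0%), with 5 at an unadjusted p under 0.05 (2819 of 33775 over all) and a median of -0.08. Means lay below control in 15 of 32 immediately (52.5% of all probe sets), 21 at 7 days (49.1%) and 24 at 14 days (47.5%). The counts of means below control were thus above the share over all probe sets at 7 and 14 days too. All counts against control share the same 3 control arrays, and several probe sets read the same gene. They are therefore not independent of each other or of the 1-day count. The limma F test over the 5 groups called 6 of 32 (background 6.43%). They were 3 of Ank2, 2 of Sptbn1 and 1 of Cntn1. Without immediate replicate 2, or without 1-day replicate 2, the F test called 2.

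**Figure D1:**
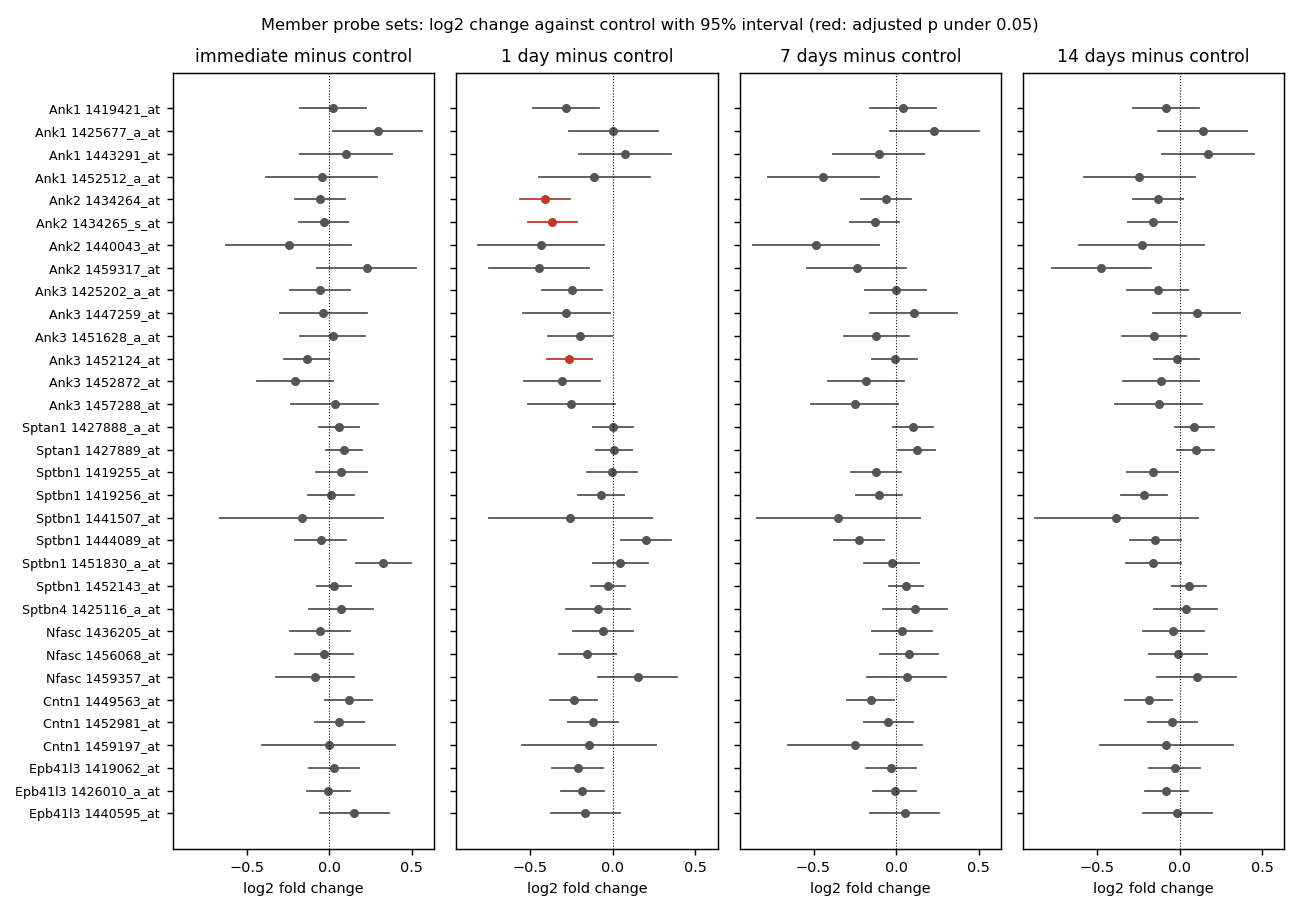
Log2 change of each of the 32 tested probe sets against control (x axis) at the 4 times after noise (panels), with 95% intervals from the limma fit and called changes in red. All 4 Ank2, 6 Ank3, 3 Cntn1 and 3 Epb41l3 probe sets lie left of 0 at 1 day, where 2 of Ank2 and 1 of Ank3 are called, and no member is called at another time.

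Among the members Ank2 had the largest called falls at 1 day against control. Probe set 1434264_at read 12.54, 12.52 and 12.61 in controls, 12.61, 12.45 and 12.44 immediately after noise, 12.09, 12.14 and 12.21 at 1 day, 12.66, 12.52 and 12.31 at 7 days and 12.38, 12.43 and 12.47 at 14 days. The 1-day arrays lay below the other 12, which held for 3 of 32 members and 2.61% of all probe sets, while 0 of 32 lay above the other 12 (background 2.29%). The fall at 1 day against control was -0.41 ± 0.07 (ratio 0.753, adjusted p = 0.00978).

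The other bright Ank2 probe set, 1434265_s_at, read 12.45, 12.41 and 12.43 in controls, 12.41, 12.43 and 12.35 immediately after noise, 12.00, 12.04 and 12.15 at 1 day, 12.51, 12.26 and 12.13 at 7 days and 12.27, 12.27 and 12.26 at 14 days. The fall at 1 day against control was -0.37 ± 0.07 (ratio 0.776, adjusted p = 0.0172). At 14 days its arrays lay above all of 1 day and below all controls, and the 14-day change of -0.16 ± 0.07 did not pass (adjusted p = 0.557). Which parts of the Ank2 transcripts the probe sets read was not determined here.

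Dimmer Ank2 probe sets had lower means at 1 day without passing. Probe set 1459317_at read 7.83, 8.33 and 8.12 in controls, 8.25, 8.41 and 8.30 immediately after noise, 7.51, 7.60 and 7.83 at 1 day, 8.03, 8.01 and 7.52 at 7 days and 7.50, 7.61 and 7.75 at 14 days. Its changes were -0.45 ± 0.14 at 1 day (adjusted p = 0.123) and -0.47 ± 0.14 at 14 days (adjusted p = 0.389). Here the 14-day mean was the lowest of the 5, unlike in the bright probe sets. Probe set 1440043_at averaged 4.26 ± 0.23 at 1 day and 4.69 ± 0.11 in controls (SD, n = 3 each), close to the filter. The change was -0.43 ± 0.18 (adjusted p = 0.247). This probe set had its lowest mean, 4.20, at 7 days, with a change of -0.49 ± 0.18 (adjusted p = 0.328). Probe sets 1440042_at, between 3.48 and 4.52, and 1444023_at, between 2.81 and 3.31, averaged under the filter and were not tested.

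**Figure D2:**
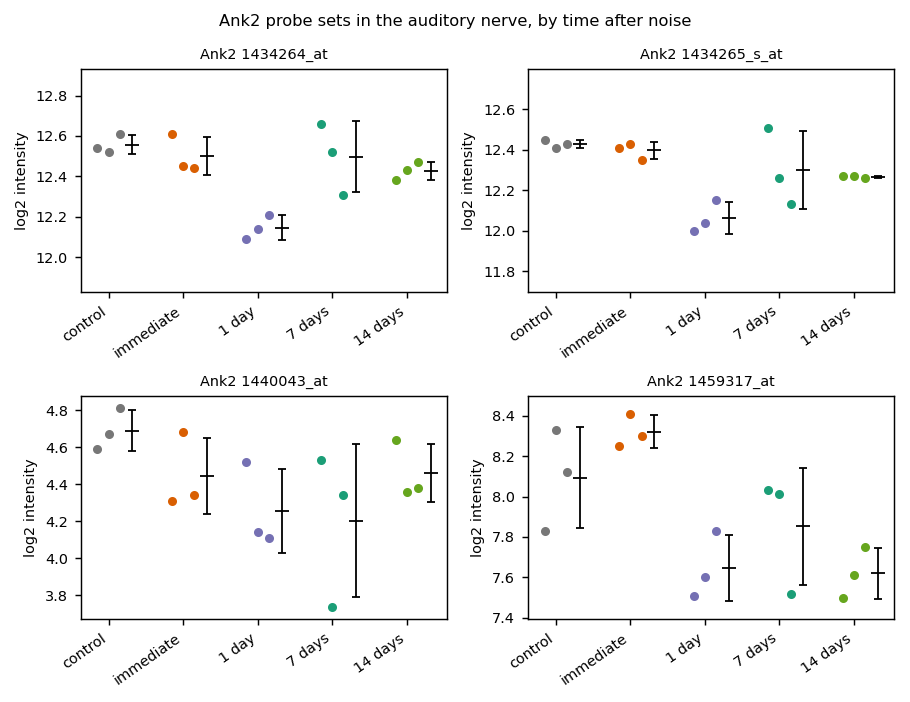
Log2 intensity (y axis) of the 4 tested Ank2 probe sets in each array of the 5 groups (x axis), with 3 points a group and the mean ± SD beside them. In 1434264_at the 1-day arrays, 12.09 to 12.21, sit below every other array.

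Between the immediate time and 1 day Ank2 fell in 3 of its 4 tested probe sets. The changes were -0.35 ± 0.07 for 1434264_at (adjusted p = 0.0106), -0.33 ± 0.07 for 1434265_s_at (adjusted p = 0.0129) and -0.67 ± 0.14 for 1459317_at (adjusted p = 0.0128). With sex as a term all 3 still passed (adjusted p = 0.0284, 0.0164 and 0.0386). Between 1 and 7 days 1434264_at rose by 0.35 ± 0.07 (adjusted p = 0.00974), and for 1434265_s_at the change was 0.24 ± 0.07 (adjusted p = 0.0537).

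The Ank2 calls at 1 day against control ended when single arrays were left out. For 1434264_at this was so without control replicate 3 (-0.38, adjusted p = 0.0589) or 1-day replicate 2 (-0.41, adjusted p = 0.0521). For 1434265_s_at it was so without control replicate 1 (-0.36, adjusted p = 0.0518), control replicate 3 (-0.37, adjusted p = 0.068) or 1-day replicate 2 (-0.35, adjusted p = 0.0877). Without 1-day replicate 2 the falls from the immediate time of 1434265_s_at (-0.32, adjusted p = 0.0542) and 1459317_at (-0.65, adjusted p = 0.0535) did not pass either. Both changes of 1434264_at between consecutive times passed without each array in turn, but its rise from 1 to 7 days did not pass in a fit of these 2 groups alone (0.35, adjusted p = 0.0804).

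With sex as a term the Ank2 falls against control were no smaller but did not pass. They were -0.44 ± 0.10 for 1434264_at (adjusted p = 0.0825) and -0.45 ± 0.09 for 1434265_s_at (adjusted p = 0.0612), and 0 of 32 members were called at 1 day. The male minus female term was 0.03 ± 0.06 and 0.08 ± 0.06 for these probe sets. It came only from the immediate, 7-day and 14-day groups, each with 2 females and 1 male. Among these males, 7-day replicate 1 was the highest of its group in 27 of 32 members. The part of that array in the changes fitted with sex as a term was not tested. In 1434264_at the 1-day males read 12.09 to 12.21, and the males of the other noise groups 12.38 to 12.66. Over the members, all 1-day males lay below the 3 other males in 16 of 32 (background 10.2%) and above them in 2 of 32 (background 8.76%). The male minus female term was called for 0 of 32 members and for 23 of all probe sets.

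Ank3, the ankyrin of nodes and axon initial segments, had lower 1-day means than controls in all 6 probe sets, with changes of -0.31 to -0.20, and 1 passed. Probe set 1452124_at read 10.08, 10.30 and 10.25 in controls, 10.04, 10.04 and 10.14 immediately after noise, 9.97, 9.94 and 9.93 at 1 day, 10.26, 10.25 and 10.09 at 7 days and 10.26, 10.15 and 10.17 at 14 days. Here too the 1-day arrays lay below the other 12. The fall against control was -0.26 ± 0.06 (ratio 0.833), at the threshold (adjusted p = 0.0499).

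Of the 15 fits without 1 array, the call held only without control replicate 1, 7-day replicate 1 or 7-day replicate 3, and these 15 fits gave -0.33 to -0.22 with adjusted p values of 0.0276 to 0.192. With sex as a term the change was -0.36 ± 0.08 (adjusted p = 0.0817). Between 1 and 7 days 1452124_at rose by 0.25 ± 0.06 (adjusted p = 0.028). That rise did not pass without 1-day replicate 2, 1-day replicate 3, 7-day replicate 1 or 7-day replicate 2, with adjusted p values up to 0.1. Probe set 1425202_a_at also had its 1-day arrays, 8.95 to 9.03, below the other 12, with a change of -0.25 ± 0.09 that did not pass (adjusted p = 0.17). The other 4 Ank3 probe sets gave adjusted p values of 0.169 to 0.347.

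Ank1, the ankyrin first known from the red cell membrane, had 1 bright and 3 dim probe sets. The bright one, 1419421_at, read 10.67, 10.98 and 11.02 in controls, 10.91, 10.87 and 10.95 immediately after noise, 10.69, 10.59 and 10.54 at 1 day, 11.08, 11.00 and 10.72 at 7 days and 10.84, 10.87 and 10.72 at 14 days. The 1-day and control arrays overlapped, since control replicate 1 lay within the 1-day range, and the change of -0.28 ± 0.09 did not pass (adjusted p = 0.141). All 7-day arrays lay above all of 1 day, and the rise of 0.33 ± 0.09 between these times passed (adjusted p = 0.0471). It did not pass with sex as a term (0.40 ± 0.10, adjusted p = 0.0616), and of the 15 fits without 1 array it passed only without control replicate 1, control replicate 3 or 7-day replicate 3, over 0.25 to 0.43.

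The 3 dim Ank1 probe sets stayed between 4.69 and 5.64 in all arrays. Their changes against control ran from -0.44 ± 0.16 for 1452512_a_at at 7 days to 0.29 ± 0.13 for 1425677_a_at immediately after noise, and neither passed (adjusted p = 0.319 and 0.288). Red cell lineage markers, read beside Ank1, gave 0 calls against control among 7 tested probe sets of 6 genes at any time. Their mean per array was 4.88 to 6.0 at 1 day and 4.71 to 6.32 in controls, so the groups overlapped. The part of red cells in the Ank1 values was not tested.

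The α spectrin gene Sptan1, whose product pairs with β spectrins in axons and other cells, differed little at any time. Probe set 1427889_at read 11.72, 11.68 and 11.70 in controls, 11.86, 11.78 and 11.72 immediately after noise, 11.68, 11.69 and 11.75 at 1 day, 11.93, 11.79 and 11.75 at 7 days and 11.76, 11.85 and 11.78 at 14 days. The 1-day change was 0.01 ± 0.05, with a 95% interval of -0.10 to 0.12, and that of 1427888_a_at was 0.00 ± 0.06, with an interval of -0.12 to 0.12. All 8 Sptan1 changes against control were above 0, and none passed. The largest was 0.12 ± 0.05, in 1427889_at at 7 days (adjusted p = 0.381). All arrays of 7 and 14 days in 1427889_at, and of 14 days in 1427888_a_at, lay above all controls.

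Sptbn4, the β spectrin of nodes and initial segments, had 1 probe set. It read 8.18, 8.25 and 8.23 in controls, 8.31, 8.37 and 8.19 immediately after noise, 8.03, 8.25 and 8.11 at 1 day, 8.52, 8.36 and 8.12 at 7 days and 8.29, 8.25 and 8.23 at 14 days. The 1-day and control arrays overlapped, and the change was -0.09 ± 0.09 with a 95% interval of -0.28 to 0.10. At the other times the changes lay between 0.04 and 0.11, and none passed.

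Sptbn1, the β spectrin of axon shafts and many other cells, had 6 probe sets that differed from each other. The brightest, 1452143_at, stayed between 12.41 and 12.66 in all 15 arrays, with a 1-day change of -0.03 ± 0.05 and a 95% interval of -0.13 to 0.08. Probe set 1444089_at, in contrast, had its highest mean at 1 day. It read 9.54, 9.50 and 9.67 in controls, 9.53, 9.51 and 9.51 immediately after noise, 9.80, 9.85 and 9.66 at 1 day, 9.47, 9.38 and 9.19 at 7 days and 9.42, 9.42 and 9.43 at 14 days. All arrays of 7 and 14 days lay below all of 1 day.

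Probe set 1444089_at changed by -0.42 ± 0.07 between 1 and 7 days (ratio 0.746, adjusted p = 0.00377), and this fall passed with sex as a term (-0.39 ± 0.08, adjusted p = 0.0308) and without each array in turn (-0.48 to -0.34). It did not pass in a fit of these 2 groups alone (adjusted p = 0.0605). Between the immediate time and 1 day it rose by 0.25 ± 0.07 (adjusted p = 0.0486). That rise did not pass with sex as a term (0.22 ± 0.08, adjusted p = 0.165), and of the fits without 1 array it passed only without control replicate 3, 1-day replicate 3, 7-day replicate 1 or 7-day replicate 3. Against control, its 1-day change of 0.20 ± 0.07 did not pass (adjusted p = 0.178).

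Probe set 1451830_a_at of Sptbn1 was highest immediately after noise instead. It read 7.63, 7.60 and 7.45 in controls, 7.82, 7.91 and 7.93 immediately after noise, 7.52, 7.65 and 7.65 at 1 day, 7.65, 7.46 and 7.49 at 7 days and 7.42, 7.33 and 7.45 at 14 days. The immediate arrays lay above all controls, but that change of 0.33 ± 0.08 did not pass (adjusted p = 0.0691). Between the immediate time and 1 day it fell, with a change of -0.28 ± 0.08 (adjusted p = 0.0457), also with sex as a term (-0.34 ± 0.09, adjusted p = 0.0482). Of the fits without 1 array it passed only without control replicate 3, 7-day replicate 1, 7-day replicate 2 or 7-day replicate 3, over -0.31 to -0.24.

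Both of the remaining bright Sptbn1 probe sets had their lowest mean at 14 days. Probe set 1419256_at read 11.46, 11.51 and 11.67 at 14 days, against 11.77, 11.73 and 11.79 in controls, a change of -0.22 ± 0.07 that did not pass (adjusted p = 0.395). For 1419255_at the 14-day change was -0.16 ± 0.07 (adjusted p = 0.567). Probe set 1441507_at spread between 5.54 and 6.50 over the arrays, and its standard error of 0.23 was the largest among the 32.

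**Figure D3:**
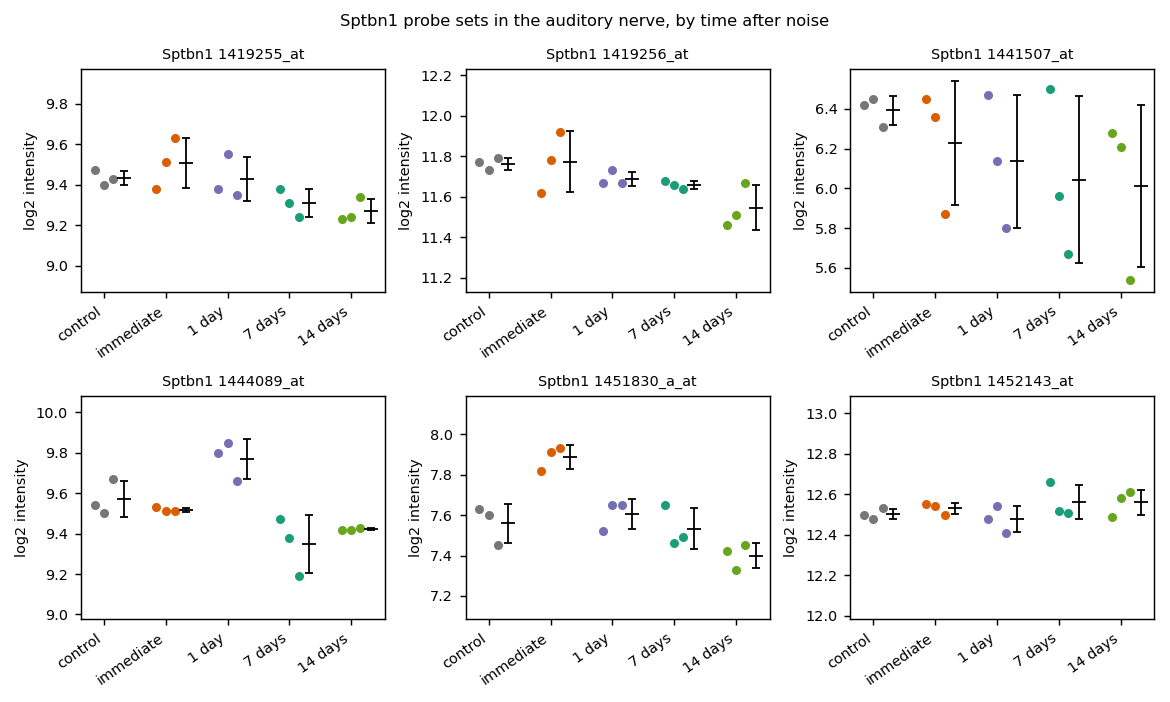
Log2 intensity (y axis) of the 6 tested Sptbn1 probe sets in each array of the 5 groups (x axis), with 3 points a group and the mean ± SD beside them. Probe set 1444089_at is highest at 1 day and 1451830_a_at immediately after noise, while 1452143_at stays between 12.41 and 12.66.

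Cntn1, the axonal adhesion molecule of the paranode, had 1 called probe set of 3, which was highest immediately after noise and lowest at 1 day. Probe set 1449563_at read 10.78, 10.95 and 10.79 in controls, 10.97, 10.99 and 10.91 immediately after noise, 10.60, 10.61 and 10.60 at 1 day, 10.81, 10.60 and 10.65 at 7 days and 10.78, 10.57 and 10.61 at 14 days. The 1-day arrays lay below all immediate arrays and all controls. The fall between the immediate time and 1 day was -0.35 ± 0.07 (ratio 0.783, adjusted p = 0.00727), and with sex as a term -0.42 ± 0.07 (adjusted p = 0.00729). It passed without each array in turn, over -0.38 to -0.34.

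Against control, the 1-day change of this probe set was -0.24 ± 0.07 and did not pass (adjusted p = 0.0828). The arrays of 7 and 14 days overlapped those of 1 day, and the change between 1 and 7 days was 0.08 ± 0.07 (adjusted p = 0.501). At 14 days the change against control was -0.19 ± 0.07 (adjusted p = 0.474). Probe sets 1452981_at and 1459197_at differed by -0.12 ± 0.07 and -0.14 ± 0.19 at 1 day against control, and neither passed (adjusted p = 0.444 and 0.791). The group means of 1452981_at were also highest immediately and lowest at 1 day, but those of 1459197_at were highest in controls and lowest at 7 days.

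Epb41l3, the membrane skeleton linker of the paranode, had lower 1-day means than controls in all 3 probe sets, and none passed. Probe set 1419062_at read 10.31, 10.33 and 10.31 in controls, 10.33, 10.43 and 10.28 immediately after noise, 10.19, 10.09 and 10.03 at 1 day, 10.46, 10.28 and 10.12 at 7 days and 10.28, 10.29 and 10.29 at 14 days. All 1-day arrays lay below all controls, and the change was -0.21 ± 0.07 (adjusted p = 0.146). For 1426010_a_at it was -0.18 ± 0.06 (adjusted p = 0.141) and for 1440595_at -0.17 ± 0.10 (adjusted p = 0.447). At the other times the changes of the 3 lay between -0.08 and 0.15.

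Nfasc, the gene of the neurofascins of axon and glia, had no called probe set in the 7 contrasts or the F test. Probe set 1456068_at read 8.42, 8.33 and 8.37 in controls, 8.27, 8.41 and 8.34 immediately after noise, 8.23, 8.27 and 8.16 at 1 day, 8.57, 8.55 and 8.23 at 7 days and 8.40, 8.33 and 8.36 at 14 days. Its 1-day change of -0.15 ± 0.08 did not pass (adjusted p = 0.389). For 1459357_at the change was 0.15 ± 0.11 (adjusted p = 0.576), and for 1436205_at -0.06 ± 0.09 with a 95% interval of -0.24 to 0.12. Over all times, Nfasc changes against control lay between -0.15 and 0.15. Which neurofascin form each probe set reads was not determined here.

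Cntnap1, the Caspr gene, could not be tested. Its single probe set, 1421580_at, stayed between 3.51 and 3.83 in all 15 arrays, under the filter and within the range of Y-linked probe sets in females. At that level a reading gives no information on a change of the transcript.

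**Figure D4:**
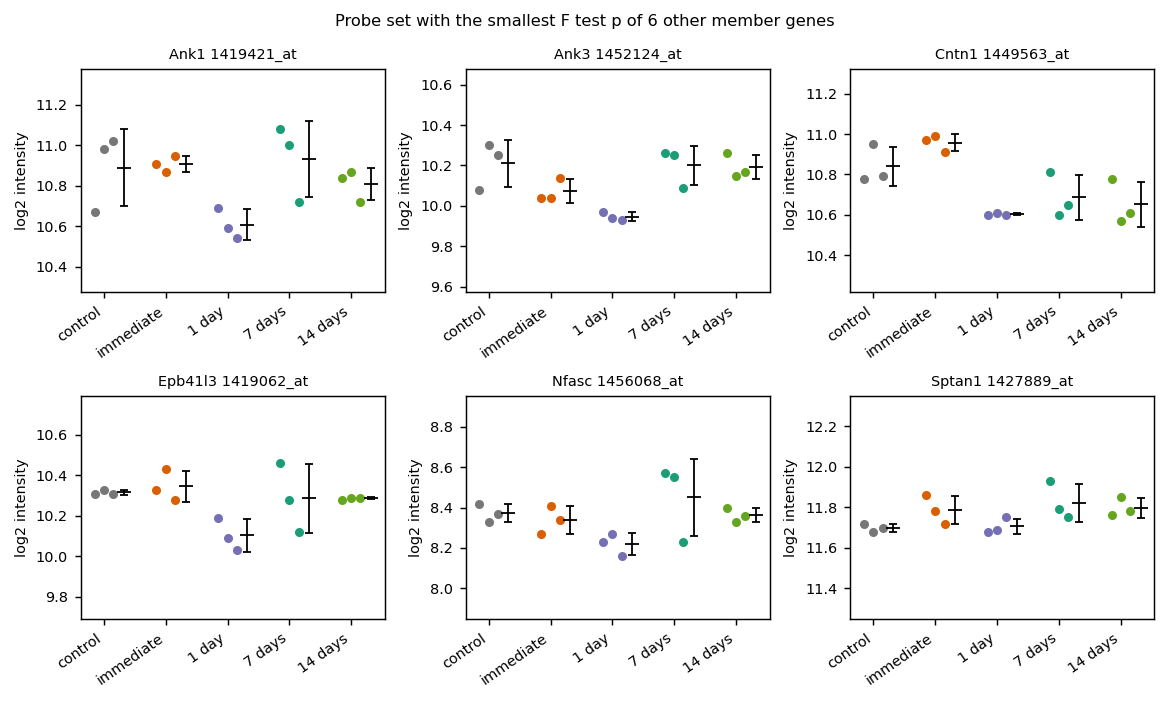
Log2 intensity (y axis) of the probe set with the smallest F test p for Ank1, Ank3, Cntn1, Epb41l3, Nfasc and Sptan1, in each array of the 5 groups (x axis), with 3 points a group and the mean ± SD beside them. The 1-day arrays of Ank3 1452124_at lie below the other 12, while those of Sptan1 1427889_at, 11.68 to 11.75, overlap the controls.

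Between consecutive times the calls lay on both sides of the 1-day group. From the immediate time to 1 day 5 fell and 1 rose of 32, against a background of 6.14% (3.42% lower and 2.72% higher). The mean was lower at 1 day in 30 of 32, against 49.2% of all. The arrays did not overlap, with 1 day lower, in 15 of 32 (background 13.3%), and with 1 day higher in 1 (background 12.9%). From 1 to 7 days 3 rose and 1 fell, against 7.18% (3.09% higher and 4.08% lower), and 10 of 32 were lower at 7 days against 46.6% of all. The arrays did not overlap, with 7 days higher, in 5 of 32 (background 11%), and with 7 days lower in 2 (background 10.7%). From 7 to 14 days limma called 0 of 32 (background 0%), with 0 at an unadjusted p under 0.05 (815 of 33775 over all). The contrasts before and after 1 day share the 1-day arrays and are not independent of each other.

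Single arrays moved these counts. Without 1-day replicate 2 the members called were 0 against control, 2 from the immediate time and 2 to 7 days. Without control replicate 3 they were 0 at 1 day against control. Without 7-day replicate 3 they were 10 from the immediate time to 1 day and 9 from 1 to 7 days. Without 7-day replicate 1 or 2, or 1-day replicate 3, they were 2 from 1 to 7 days, and without 7-day replicate 1 they were 1 at 7 days against control.

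The 7-day arrays stood apart from each other over these genes. Replicate 1, the male, was the highest of the 3 in 27 of 32 member probe sets, and replicate 3 the lowest in 25. The member mean, minus its control mean, was 0.06, -0.09 and -0.20 in the 7-day replicates, and -0.14, -0.13 and -0.18 at 1 day. On the same scale the macrophage marker mean was -0.05, -0.27 and 0.39 in the 7-day replicates. The part of this spread in the 7-day values was not tested.

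Markers of the cells in the tissue were read beside the 1-day result. Among all probe sets 0.85% were called lower and 0.986% higher at 1 day against control. Neuron markers, 25 tested probe sets of 12 genes, gave 1 higher (Uchl1) and 0 lower at 1 day against control, with a median of -0.03. Their mean per array was 8.40 to 8.61 at 1 day and 8.39 to 8.43 in controls. Macrophage markers gave 9 higher and 0 lower of 15, with a median of 0.88 and means of 8.04 to 8.15 at 1 day, against 7.20 to 7.35 in controls. Once sex was a term in the fit, the macrophage list had 3 calls instead of 9, and 0 probe sets of the neuron, Schwann cell, bone and skeletal muscle lists were called at 1 day against control. The part of these cells in the members' values was not tested.

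Schwann cell genes gave 4 lower and 0 higher of 23 tested probe sets at 1 day (background 0.85% lower), with a median of -0.02. Their means were 10.35 to 10.46 at 1 day and 10.43 to 10.55 in controls. The 4 were 2 of the myelin enzyme Cnp and 1 each of Ncmap and Fa2h. Oligodendrocyte genes gave 0 calls of 15, with a median of 0.05, and endothelial genes 0 of 14, with a median of 0.01. Bone genes gave 2 lower of 13 (Ibsp and Dmp1), with a median of -0.81, and skeletal muscle genes 2 lower of 10, both of Ttn. The bone mean per array was 7.47, 7.59 and 8.60 in controls and 6.84 to 7.19 at 1 day. The bone median was also below 0 later, at -0.55 at 7 days and -0.63 at 14 days. The part of these cells was not tested either. On RNA quality, the beta-actin 3' reading exceeded the 5' reading by 0.45 to 0.50 at 1 day and 0.49 to 0.56 in controls.

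In the contrasts between consecutive times, where most member calls lay, markers moved too, and the genes named here were picked after their values were seen. From the immediate time to 1 day, 4 neuron probe sets fell and 2 rose of 25 (background 6.14%), with a median of -0.06. The falls were 2 of Nefl (-0.42 ± 0.07 and -0.21 ± 0.04), 1 of Nefm (-0.45 ± 0.10) and 1 of Nefh (-0.22 ± 0.05), which encode the neurofilaments of axons, and the rises were of Prph and Uchl1. Both Nefl probe sets rose from 1 to 7 days (0.39 ± 0.07 and 0.16 ± 0.04). Of 23 Schwann cell probe sets, 21 had a lower mean at 1 day than immediately after noise, with a median of -0.15 and 2 falls, of Fa2h and Cnp. From 1 to 7 days the Schwann cell median was 0.20, with 5 rises and 0 falls (background 3.09% higher). In the oligodendrocyte list both called probe sets, of the myelin lipid enzyme Ugt8a, fell to 1 day and rose to 7 days. Macrophage markers gave 10 rises of 15 to 1 day and 10 falls to 7 days. The part of these lists in the members' values was not tested.

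**Figure D5:**
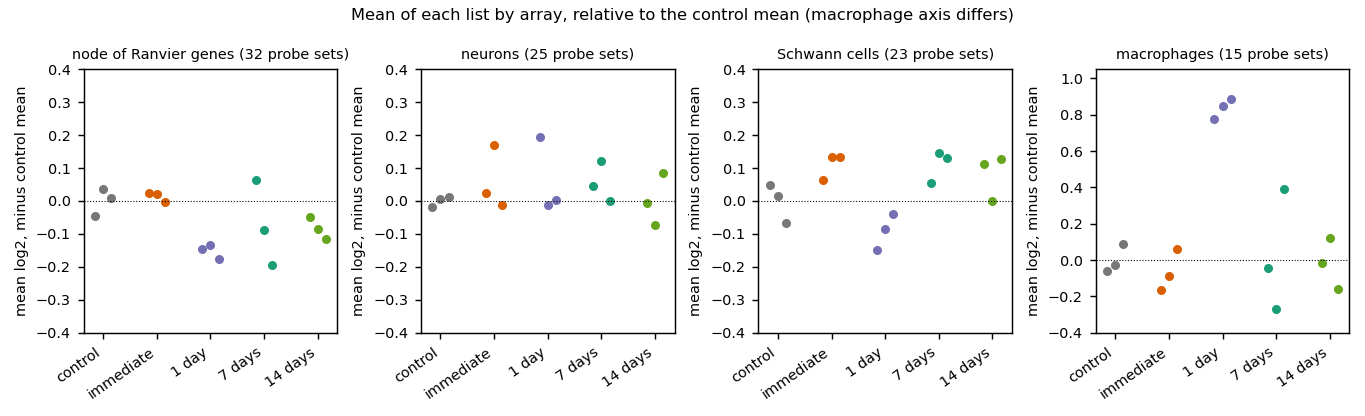
Mean log2 value of the node of Ranvier genes and of neuron, Schwann cell and macrophage markers in each array (points), minus the control mean (y axis, wider for macrophages), over the 5 groups (x axis). At 1 day the members lie between -0.18 and -0.13, neuron markers between -0.01 and 0.20, and macrophage markers between 0.78 and 0.88.

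Other genes of the nodal region were read as lists. Of 25 tested probe sets of nodal membrane genes, 1 fell and 1 rose at 1 day against control (background 1.84%), with a median of -0.13, and 0 were called at the other 3 times. Scn4b, a sodium channel β subunit, read 9.69, 9.75 and 9.80 at 1 day, against 10.06, 10.20 and 10.37 in controls. It fell, with a change of -0.46 ± 0.08 (adjusted p = 0.0118). Kcnq3, a potassium channel subunit, read 8.69, 8.69 and 8.52 at 1 day, against 8.34, 8.36 and 8.13 in controls, and rose by 0.36 ± 0.07 in 1 of its 2 tested probe sets (adjusted p = 0.0245). With sex as a term neither passed (adjusted p = 0.0592 and 0.138).

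Of 40 tested probe sets of juxtaparanode genes, 1 fell and 0 rose at 1 day against control (background 0.85% lower), with a median of -0.11. It was of Adam23, a partner of LGI proteins, and read 8.59, 8.80 and 8.80 at 1 day, against 9.07, 9.18 and 9.10 in controls. The fall of -0.39 ± 0.09 (adjusted p = 0.033), in 1 of 3 tested probe sets of the gene, did not pass with sex as a term (adjusted p = 0.0779). Other ankyrin, spectrin and membrane skeleton genes gave 0 calls against control among 38 tested probe sets, with a 1-day median of -0.05. Their smallest p values were at 7 days, for Tmod2 (-0.54 ± 0.13, adjusted p = 0.165) and Epb41l2 (0.33 ± 0.10, adjusted p = 0.249).

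The extracellular matrix list had 20 tested probe sets, and 2 genes were called against control. Acan, the aggrecan gene of cartilage and perineuronal nets, fell immediately after noise (-0.54 ± 0.09, adjusted p = 0.0104) and at 1 day (-0.53 ± 0.09, adjusted p = 0.00674). It read 8.52, 8.89 and 8.76 in controls, 8.22, 8.25 and 8.09 immediately and 8.21, 8.19 and 8.17 at 1 day. The later readings, 8.32, 8.16 and 8.27 at 7 days and 8.35, 8.21 and 8.39 at 14 days, also lay below all controls. Neither later change was called. Hapln1, a link protein of the same matrix, rose immediately by 0.74 ± 0.13 in 1 of 4 tested probe sets (adjusted p = 0.0175), with readings of 5.97, 6.05 and 5.82, against 5.38, 5.22 and 5.01 in controls. With sex as a term both immediate changes passed (adjusted p = 0.0229 for Acan, adjusted p = 0.0421 for Hapln1) and Acan at 1 day did not (adjusted p = 0.0843).

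Genes of the Schwann cell microvilli that cover peripheral nodes gave 1 call against control among 31 tested probe sets, a fall at 7 days. Slc9a3r1, a scaffold that binds ezrin, read 9.21, 9.19 and 9.28 at 7 days, against 9.54, 9.60 and 9.50 in controls. The fall of -0.32 ± 0.05 passed narrowly (adjusted p = 0.0492), in 1 of 3 tested probe sets, and not with sex as a term (adjusted p = 0.0569). Internodal adhesion genes gave 0 calls of 30 against control. Their smallest p values were for Cdh1 immediately (0.25 ± 0.06, adjusted p = 0.0691) and Cadm1 at 7 days (-0.26 ± 0.06, adjusted p = 0.153).

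The related lists also had calls between consecutive times, and these genes too were picked after their values were seen. From the immediate time to 1 day (background 3.42% lower), 4 of 25 nodal membrane probe sets fell and 0 rose, with a median of -0.19. They were 2 of Scn1a (-0.69 ± 0.15 and -0.34 ± 0.09), 1 of Scn4b (-0.48 ± 0.08) and 1 of the adhesion gene Nrcam (-0.35 ± 0.10). In the juxtaparanode list 6 of 40 fell and 0 rose, with a median of -0.12. They were 2 of Adam23 and 1 each of Dlg2, Kcna2, Kcnab2 and Lgi2, with changes of -0.71 to -0.30. The matrix list gave 5 falls of 20, of Hapln1, Hapln4 and Bcan, the microvilli list 4 of 31, all of Slc9a3r2, the internodal list 1 of 30 and the other cytoskeleton list 0 of 38, each with 0 rises. Fitted with sex as a term, the calls were 3 nodal membrane, 3 juxtaparanode, 4 matrix, 3 microvilli and 0 internodal.

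From 1 to 7 days (background 3.09% higher and 4.08% lower), 2 nodal membrane probe sets rose and 1 fell. Scn4b rose by 0.53 ± 0.08, Kcnk2, a potassium channel gene, rose by 0.29 ± 0.08, and another probe set of Nrcam fell, with a change of -0.44 ± 0.11. In the juxtaparanode list 3 rose, of Adam23, Kcnab2 and Dlg4, and 0 fell. The Adam23 rise was not in the probe set called against control, which read 9.05, 8.70 and 8.73 at 7 days, still below all controls. The Kcnab2 rise was in another probe set than its fall from the immediate time to 1 day. The microvilli list gave 4 falls, 2 of Slc9a3r1 and 1 each of Msn and Sdc4, and 1 rise, of Slc9a3r2. The matrix list gave 1 rise and 1 fall, the internodal list 2 rises and 1 fall and the other cytoskeleton list 1 fall.

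By Pearson correlation over the 15 arrays, Ank2 1434264_at was most like probe sets of Rims1 (r = 0.963), Ttc3 (0.956) and Adam23 (0.955) among 27674 compared. Rims1 encodes a scaffold of the presynaptic active zone. Sptbn1 1451830_a_at was most like Ppp2r5e (0.934), the sodium channel gene Scn1a (0.931) and Eps15 (0.926). All points share the 5 groups, so these values describe the arrays only.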

How the data were processed

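The deposited table gave 1 log2 intensity per probe set and array from Affymetrix 3' arrays, each labelled from 50 ng of total RNA. Affymetrix Expression Console, RMA and MAS5 are named by the submitters' processing notes, and which of these the authors applied to the log2 values is not stated there. The values ran from 2.06 to 14.63 and were not normalized further. Probe sets read mostly the 3' end of a transcript. Signals near background can compress, so changes of dim probe sets may be understated, which was not tested here. The number of arrays limits the precision.

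Of 45101 probe sets, 64 control sets and the lowest 25% by mean over all arrays were left out. The other 33775 were fitted by group with limma 3.58.1 in R 4.3.3 (lmFit, eBayes with trend, two-sided, 10 residual degrees of freedom) and adjusted within each of 7 contrasts. The functions were tested on simulated data. Symbols came from the platform annotation, and none of the 35 member probe sets was paired with several genes. Each array is a separate animal, and 2 arrays held the same value at 3.67% of probe sets at most.

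Members were always named. From each related list, genes called against control were named, up to 3 in each direction, or otherwise the 2 with the smallest p. For the 2 members with the smallest F test p, the 3 most correlated genes were named. The members and lists were chosen with earlier results of these data known. The alternatives were no filter or one at 50%, 1 probe set per gene, sex or the replicate number as a term, other variance models, 2 groups alone, female arrays alone, 2 normalizations, an unadjusted threshold with 1.5-fold, and each array left out.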

Additional observations from a re-analysis of the deposited data

Results flagged for a closer look

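Changes of 5 member genes relative to the same controls differed between consecutive times, as tested by the contrast between those times. From immediate to 1 day these were Ank2 1434264_at (-0.35), Ank2 1434265_s_at (-0.33), Ank2 1459317_at (-0.67), Cntn1 1449563_at (-0.35), Sptbn1 1451830_a_at (-0.28) and Sptbn1 1444089_at (0.25). From 1 to 7 days they were Ank1 1419421_at (0.33), Ank2 1434264_at (0.35), Ank3 1452124_at (0.25) and Sptbn1 1444089_at (-0.42). Groups of 3 arrays were not tested for outlying arrays.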

How the results depend on the processing

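All 13 called member changes kept their direction in all 331 recomputed values, and 243 of these kept the call. For many of the values the direction could not differ. Other filters, 1 probe set per gene, the replicate block, the eBayes variants, fits of 2 groups and arrays left out of other groups leave the log2 change as it was. Only sex as a term, array weights, the normalizations and arrays left out of the compared groups could move it. At 1 day against control the 3 calls became 0 with sex as a term, 1 without the eBayes trend, 6 with array weights and 0 at an unadjusted p with 1.5-fold, and 0 to 3 with single arrays left out. From immediate to 1 day the 6 calls became 1 with 1 probe set per gene, 10 with array weights and 1 at the unadjusted threshold, and 2 to 10 with an array left out. From 1 to 7 days the 4 calls became 2 without the trend, 2 with array weights, 0 in a fit of the 2 groups and 0 at the unadjusted threshold, and 2 to 9 with an array left out. The F test called 6, but 2 with 1 probe set per gene, 3 without the trend, 0 in females alone (which leaves out the 1-day group), and 2 to 9 with an array left out. Immediately after noise array weights gave 1, and single arrays left out 0 throughout. At 7 days against control these gave 0 to 1, and at 14 days against control and from 7 to 14 days 0. The causes were not tested, except that 1 probe set per gene leaves fewer probe sets to call. Same-numbered arrays correlated at over 0.1 in 11 of 30 pairs (median 0.05), so the replicate block is given only here. With it the counts were 0, 2, 0 and 0 against control, 5 from immediate to 1 day, 3 from 1 to 7 days and 0 from 7 to 14 days. Ank3 1452124_at (adjusted p = 0.0562) lost its call against control, as did both Sptbn1 changes from immediate to 1 day (0.0505 and 0.0537) and Ank1 1419421_at from 1 to 7 days (0.0516). Over all probe sets, 620 were called at 1 day against control, 44 with sex as a term, 367 without the trend, 1509 with array weights and 139 to 939 without an array of these groups.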
